A study of Homo sapiens with 5 samples.

Results

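The mRNAs of 10 histone lysine demethylases (KDM1A, KDM2A, KDM2B, KDM3B, KDM4A, KDM4B, KDM5A, KDM5B, KDM6A and KDM6B) were followed through 5 RNA sequencing libraries. The list is set by name and has no threshold on a measured value, although it was drawn up with earlier results of these data known. All 10 were among the 11764 genes with a mean level of at least 1 FPKM (sequenced fragments scaled to transcript length and to the size of the library) over the 5 libraries, out of 56632 gene identifiers. The cells were MCF10A, an established human breast epithelial line that does not form tumors, grown with horse serum, insulin, EGF, hydrocortisone and cholera toxin, at a low passage number and without any treatment. RNA immunoprecipitation (RIP) recovers the RNA that comes down with a protein, and its sequencing (RIPseq) is read against the input, the RNA of the lysate before precipitation. There was 1 input and 1 FLAG antibody RIP from a stable MCF10A line expressing FLAG-tagged CBFB, and 1 input and 2 hnRNPK antibody RIP repeats from parental MCF10A cells. The labels do not say whether the stable line keeps its own CBFB, which end of CBFB carries the tag, or whether the line is a clone. For its protein pulldowns the study made lentivirally transduced lines from CBFB knockout MCF10A cells, with the tag at either end, and its methods do not say whether the RIPseq line was among them. No mock precipitation was analysed here, and nothing says that the hnRNPK repeats came from separate cultures, so their spread may be technical.

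CBFB is the partner of the RUNX transcription factors, and hnRNPK binds RNA by its KH domains with a preference for runs of C. The question was which demethylase mRNAs came down with either protein. Histone lysine demethylases remove methyl groups from the tails of histones and so help to set which genes are open or silent. KDM1A (LSD1) is a flavin-dependent amine oxidase, while the other 9 carry a JmjC domain, which uses iron and 2-oxoglutarate. The KDM2 enzymes act on H3K36 methylation and hold a CXXC domain that binds unmethylated CpG DNA, KDM3B and the KDM4 enzymes act on H3K9 methylation (KDM4 also on H3K36), the KDM5 enzymes act on H3K4 methylation, and KDM6A (UTX) and KDM6B (JMJD3) act on the repressive H3K27 mark. KDM6B is known as an inducible gene of short-lived mRNA, while KDM6A is a stable subunit of the KMT2C and KMT2D methyltransferase complexes.

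Library size ranged from 69786576 to 106855647 expected counts. Transcripts of the 37 mitochondrial genes took 4.27% and 11.2% of the counts in the inputs, 62.2% after FLAG-CBFB RIP and 84.5% and 86.6% after hnRNPK RIP, and the average gene had a lower FPKM in a RIP than in its input. RIP values were therefore also compared as enrichment: log2(FPKM + 1) in the RIP minus that in its own input, centred on its mean over the 11764 genes, which was -1.34 for FLAG-CBFB and -2.61 and -2.68 for the hnRNPK repeats. Enrichment is thus relative to the average gene, and a gene was called enriched above 2 (4-fold). The basal epithelial markers KRT5 (1974 and 1640 FPKM in the 2 inputs) and KRT17 (974.1 and 539.9 FPKM) were high, KRT14 was low (6.78 and 1.81 FPKM), and the leukocyte marker PTPRC was at 0 and 0.01 FPKM.

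KDM6B was the only member enriched in both precipitations, KDM2A was enriched in the hnRNPK RIPs alone, and none of the other 8 passed 4-fold in either. The sequences that set the enriched members beside their closest relatives are shown first, because hnRNPK is known for binding runs of C. For each, the stretch of 30 bases richest in C was taken from the longest protein-coding mRNA of the gene in GENCODE 29, and runs of 3 or more C are in capitals. The KDM6B stretch lies in the coding sequence (mRNA positions 1920 to 1949, 24 of 30 bases C), that of KDM6A in the 5′ UTR (181 to 210, 19 C), that of KDM2A in the 3′ UTR (5387 to 5416, 21 C) and that of KDM2B in the 5′ UTR (71 to 100, 21 C). KDM5A is added because its 5′ UTR (328 to 357, 22 C) holds the longest run of C of any member, 15 bases, although it was not enriched.
KDM6B: CCCCCCCgCCCtgCCCCaccaCCCCtCCCC
KDM6A: ctccgcagCCCCtgccgccgccgccgccgc
KDM2A: cacaacctcttCCCCCCaCCCCgCCCCgcc
KDM2B: acctcctcgggccgccgCCCCCaCCCCCCC
KDM5A: CCCCacggggaCCCCCCCCCCCCCCCggcc

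KDM6B was the weakest member in the inputs and among the strongest in the RIPs. Its level was 4.91 FPKM in the FLAG-CBFB cell input, 14.84 after FLAG RIP, 4.03 in the parental input, and 17.77 and 12.69 after hnRNPK RIP. All 3 RIP libraries stood above both inputs, which held for no other member. Behind these levels were 2415, 7642, 1435, 8915 and 4860 expected counts, in the same order. The FPKM ratio of RIP to input was 3.02 for FLAG-CBFB and 4.41 and 3.15 for the hnRNPK repeats. Centred, enrichment was 2.76 ± 0.07 in the FLAG-CBFB RIP (95% counting half-width, no replicate) and 4.32 ± 0.27 in the hnRNPK RIP (SD, n = 2; repeats 4.51 and 4.12). This put KDM6B at rank 282 of 11764 genes for FLAG-CBFB and at rank 141 for hnRNPK. The KDM6B gene lies at chr17:7839904-7854796 on the plus strand (GRCh38).

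KDM2A kept a level in the RIPs close to that of its input. It stood at 25.12 FPKM in the FLAG-CBFB cell input, 15.42 after FLAG RIP, 23.44 in the parental input, and 17.38 and 19.20 after hnRNPK RIP, from 5288 to 10281 expected counts a library. Every RIP was below its own input, but less so than for the other 8 members below theirs. The FPKM ratio of RIP to input was 0.61 for FLAG-CBFB and 0.74 and 0.82 for the hnRNPK repeats. Against the average gene this was an enrichment of 0.67 ± 0.05 (95% counting half-width) for FLAG-CBFB and 2.30 ± 0.15 (SD, n = 2; repeats 2.20 and 2.40) for hnRNPK. KDM2A thus passed 4-fold in both hnRNPK repeats, by little, and was not enriched with FLAG-CBFB. The difference between the 2 precipitations was not tested, since FLAG-CBFB has 1 library. The gene lies at chr11:67119269-67258087 on the plus strand.

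**Figure D1:**
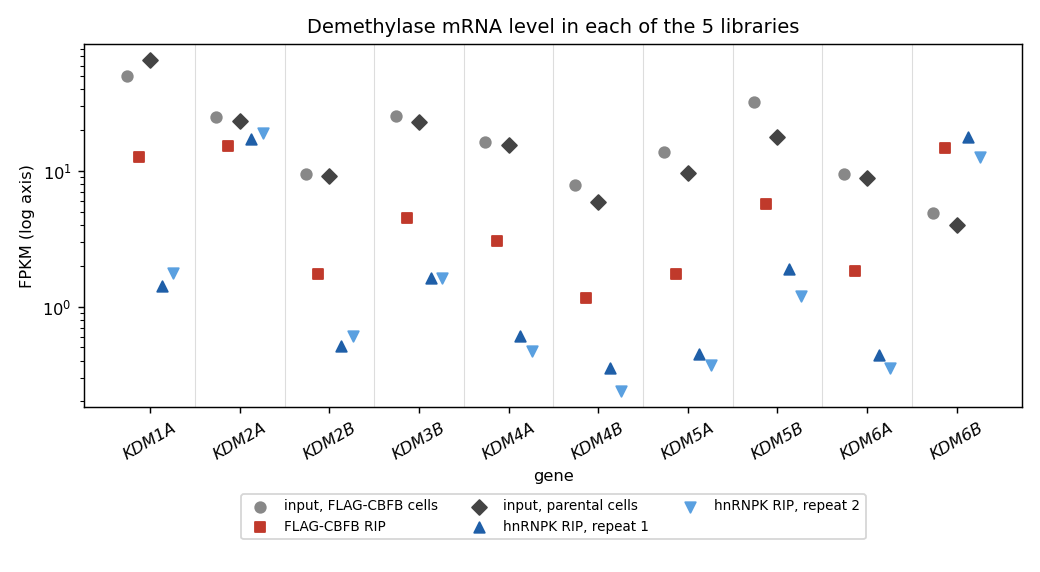
Level of each demethylase mRNA in FPKM (log axis) in the 5 libraries, 1 point per library. KDM6B is the only gene whose 3 RIP points lie above both inputs, KDM2A stays near its inputs, and the other 8 lie below their inputs in all RIPs.

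KDM1A, the LSD1 enzyme of the CoREST repressor complex, was the most abundant member in the inputs and the most depleted in the hnRNPK RIPs. It stood at 50.31 FPKM in the FLAG-CBFB cell input, 12.79 after FLAG RIP, 65.40 in the parental input, and 1.41 and 1.78 after hnRNPK RIP. The hnRNPK RIPs were far below the input, at ratios of 0.0216 and 0.0272, while the FLAG-CBFB RIP kept 0.254. Its enrichment was -0.56 ± 0.06 (95% counting half-width) with FLAG-CBFB and -2.04 ± 0.20 (SD, n = 2; repeats -2.17 and -1.90) with hnRNPK. KDM1A was the only member with a mean below -2, but only just, and repeat 2 alone was above that line. It was also above it with a pseudocount of 0.1 (-1.84), with median centring (-1.93), against the opposite input (-1.70), without mitochondrial genes (-1.75), with the filter raised to 5 FPKM (-1.58), and as log2 CPM with TMM factors (-1.64) or DESeq2 size factors (-1.47). The gene lies at chr1:23019443-23083689 on the plus strand.

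KDM6A, the constitutive H3K27 demethylase, did not follow its relative KDM6B. Its level was 9.51 FPKM in the FLAG-CBFB cell input, 1.82 after FLAG RIP, 8.86 in the parental input, and 0.44 and 0.35 after hnRNPK RIP. The average gene fell from input to RIP, and all 3 RIP libraries of KDM6A were likewise below both inputs, the opposite of KDM6B. Enrichment was -0.56 ± 0.13 for FLAG-CBFB (95% counting half-width) and -0.18 ± 0.02 for hnRNPK (SD, n = 2). Within a library the centring cancels, so that KDM6B exceeded KDM6A by 3.32 ± 0.14 on the log2 scale of enrichment for FLAG-CBFB (95% counting half-width) and by 4.49 ± 0.26 for hnRNPK (SD, n = 2; 4.67 and 4.31). With a pseudocount of 0.1 in place of 1, the hnRNPK values were 5.31 for KDM6B and -0.74 for KDM6A, further apart. KDM6A lies at chrX:44873177-45112602 on the plus strand.

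KDM2B, which recruits a variant Polycomb repressive complex to CpG islands, was likewise apart from KDM2A. It stood at 9.50 FPKM in the FLAG-CBFB cell input, 1.75 after FLAG RIP, 9.13 in the parental input, and 0.51 and 0.61 after hnRNPK RIP. Its enrichment was -0.59 ± 0.13 for FLAG-CBFB and -0.06 ± 0.12 (SD, n = 2) for hnRNPK. KDM2A exceeded it by 1.26 ± 0.14 (95% counting half-width) for FLAG-CBFB and by 2.36 ± 0.03 for hnRNPK (SD, n = 2). The size of the gap depends on the pseudocount, which the SD does not cover. With 0.1 in place of 1, the hnRNPK values were 3.08 for KDM2A and -0.37 for KDM2B, further apart. KDM2B lies at chr12:121429097-121581015 on the minus strand. In both pairs the gap was the same way in all 3 RIP libraries and larger than the counting error and the spread of the repeats.

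The H3K9 demethylases were all below their inputs. KDM3B stood at 25.32 and 22.98 FPKM in the inputs of FLAG-CBFB and parental cells, 4.49 after FLAG RIP, and 1.62 and 1.63 after hnRNPK RIP. KDM4A stood at 16.30 and 15.63 FPKM in the inputs, 3.03 after FLAG RIP, and 0.61 and 0.47 after hnRNPK RIP. KDM4B stood at 7.95 and 5.93 FPKM in the inputs, 1.15 after FLAG RIP, and 0.35 and 0.24 after hnRNPK RIP. The genes lie at chr5:138352596-138437028 (KDM3B), chr1:43650158-43705515 (KDM4A) and chr19:4969113-5153595 (KDM4B), all on the plus strand. Before centring, the average gene changed by -1.34 in the FLAG-CBFB RIP and by -2.61 and -2.68 in the hnRNPK repeats, on the log2(FPKM + 1) scale. Each RIP of these 3 genes was likewise below both inputs. Their FLAG-CBFB enrichment was -0.92, -0.76 and -0.72, in that order, with 95% counting half-widths of 0.06 to 0.13. With a pseudocount of 1, KDM4A and KDM4B differed by -0.04 ± 0.16 in the FLAG-CBFB RIP, inside counting error. With a pseudocount of 0.1 they were at -0.82 and -1.12, a gap beyond that error. Against the opposite input they were at -0.67 and -0.32, the other way, so their order is not resolved. In the hnRNPK RIP, enrichment was -0.55 ± 0.05 for KDM3B, -0.79 ± 0.04 for KDM4A and 0.22 ± 0.04 for KDM4B (SD, n = 2).

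The H3K4 demethylases KDM5A, found as a partner of the retinoblastoma protein, and KDM5B, known for its high level in breast cancer, were also below the average gene with FLAG-CBFB, by an amount that depends on the input used. KDM5A stood at 13.85 and 9.65 FPKM in the inputs of FLAG-CBFB and parental cells, 1.73 after FLAG RIP, and 0.45 and 0.37 after hnRNPK RIP. KDM5B stood at 32.46 and 17.83 FPKM in the inputs, 5.72 after FLAG RIP, and 1.88 and 1.20 after hnRNPK RIP. Both were below their inputs in every RIP, as the average gene was. KDM5B was also the member whose 2 inputs differed most, by 0.83 on the log2(FPKM + 1) scale. Enrichment with FLAG-CBFB was -1.10 ± 0.09 for KDM5A, which put it at the 2.47th percentile of all genes, and -0.98 ± 0.05 for KDM5B (95% counting half-widths), which overlapped that of KDM3B. Against the opposite input, the parental one, the values were -0.59 for KDM5A and -0.12 for KDM5B. With hnRNPK it was -0.27 ± 0.01 and -0.26 ± 0.22 (SD, n = 2). With a pseudocount of 1, the difference between them changed sign between the hnRNPK repeats, at 0.17 and -0.14. With a pseudocount of 0.1, KDM5B was above KDM5A, at -0.04 against -0.82. Its FPKM ratio of RIP to input was also higher in both repeats, at 0.105 and 0.067 against 0.047 and 0.038. Against the opposite input KDM5B was below KDM5A, at -1.12 against -0.78. Their order thus depends on the pseudocount and the input and is not resolved. Both genes lie on the minus strand, at chr12:280129-389454 (KDM5A) and chr1:202724495-202809470 (KDM5B).

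Over the 10 members, 1 was enriched above 4-fold in the FLAG-CBFB RIP, where 4.37% of all 11764 genes were, and 2 in the hnRNPK RIP, where 8.20% of all genes were. Counts this small do not set the group apart from the background. None was below -2 with FLAG-CBFB, where 0.0935% of all genes were, and 1 was with hnRNPK (6.24% of all genes). The median enrichment of the members was -0.66 with FLAG-CBFB and -0.22 with hnRNPK, beside -0.19 and -0.11 over all genes. Enrichment was positive for 2 of 10 members with FLAG-CBFB and for 3 of 10 with hnRNPK. Of all 11764 genes, 4129 and 5508 were positive. In the order of FLAG-CBFB enrichment, KDM6B and then KDM2A led by more than their counting error. With a pseudocount of 1, KDM1A, KDM6A and KDM2B lay within 0.04 of each other, inside that error. With a pseudocount of 0.1 they were at -0.40, -0.76 and -0.81, and against the opposite input at -0.90, -0.435 and -0.51. The place of KDM1A beside KDM6A and KDM2B thus depends on both settings.

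The scale limits how far a weak mRNA can fall. With no reads at all in the hnRNPK RIP, KDM4B would still have an enrichment of -0.15, KDM6A of -0.66, KDM2B of -0.70 and KDM5A of -0.77. Only KDM1A, whose value without reads would be -3.41, had an input level that let it pass -2, as 34.9% of all genes did. The hnRNPK values of the members with low inputs are therefore bounded from below by those inputs, and the positive value of KDM4B came from 184 and 110 counts beside 2136 in the input. With a pseudocount of 0.1 in place of 1, KDM4B was at -0.50.

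**Figure D2:**
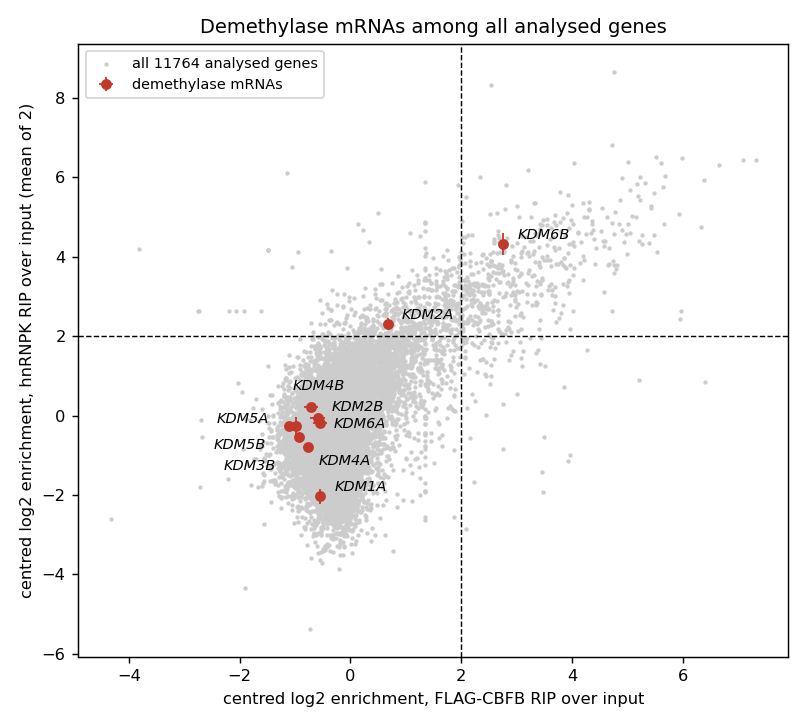
Centred log2 enrichment in the FLAG-CBFB RIP (horizontal) and in the hnRNPK RIP (vertical, mean of 2 repeats) for all 11764 genes (grey) and the 10 demethylases (red). Horizontal bars are 95% counting half-widths, vertical bars the SD of 2 repeats and dashed lines 4-fold. KDM6B (2.76, 4.32) lies past both lines, KDM2A (0.67, 2.30) past the hnRNPK line alone, and KDM1A is the lowest member for hnRNPK.

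The expected counts of the 2 hnRNPK RIP libraries were also tested against the 1 parental input with edgeR's quasi-likelihood test, over all 11764 genes with Benjamini-Hochberg adjustment. KDM6B and KDM2A were called higher. The log2 fold change of KDM6B was 5.73 ± 0.45 (SE; edgeR adjusted p = 1.95e-08) and that of KDM2A was 3.63 ± 0.38 (SE; edgeR adjusted p = 5.09e-07). KDM1A was called lower, at -1.51 ± 0.33 (SE; edgeR adjusted p = 0.0012). Across all genes 24.6% were called higher and 14.3% lower, so the counts of 2 and 1 among 10 members are near the background. The other 7 members passed in neither direction. Of these, KDM4A came closest (log2 fold change -0.85 ± 0.33 (SE), edgeR adjusted p = 0.0521), and the remaining 6 had log2 fold changes between -0.39 (KDM4B) and 0.37 (KDM5B), with adjusted p from 0.42 to 0.76 by edgeR. The median log2 fold change was -0.21 over the members and -0.10 over all genes. In this test only the 2 RIP repeats show the spread of a gene, and the lone input is assumed to vary like them. That spread is moderated with the one estimated over all 11764 genes. The standard errors and p-values thus do not measure the repeat spread of a member by itself.

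The reference point decided the sign for KDM2A. Scaled by total counts alone, mitochondrial transcripts included, its log2 fold change was -0.36 (edgeR adjusted p = 0.35) and 8 members were called lower, while KDM6B stayed higher. The KDM2A enrichment was likewise -0.34 without centring, against 1.67 for KDM6B. KDM2A thus rose relative to the average analysed gene and not in its share of the library.

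**Figure D3:**
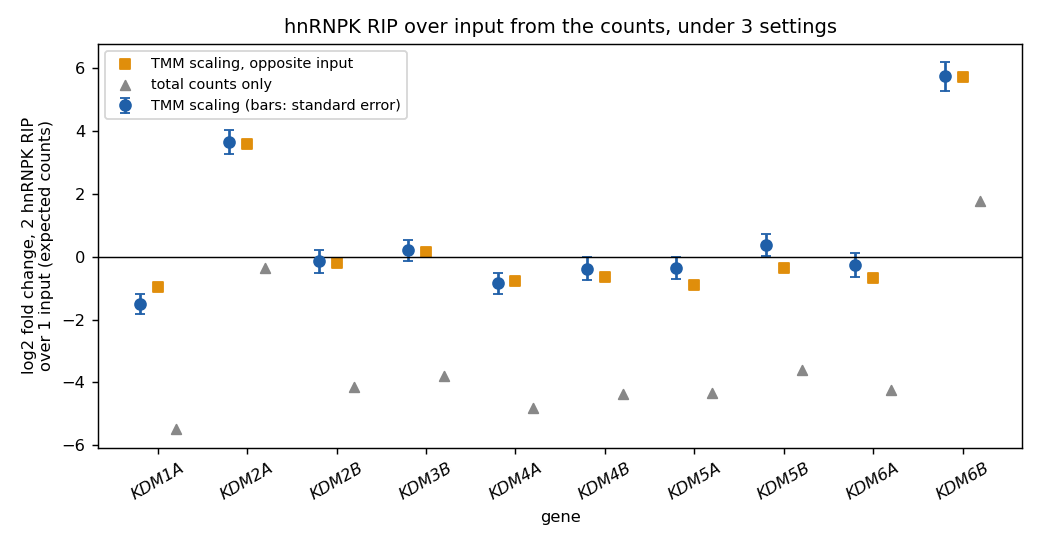
Log2 fold change of each demethylase in 2 hnRNPK RIP libraries over 1 input from edgeR, with TMM scaling (blue, bars standard error), with TMM scaling against the opposite input (orange) and with total counts alone (grey). KDM6B is above 0 under all 3 settings, KDM2A is above 0 under TMM scaling only, and total counts place the other 8 well below 0.

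C-run density was a readout that the choice of members did not use. Windows of CCCCC were counted on the mRNA strand, overlapping ones included, in the longest protein-coding mRNA of each gene. At least 1 such window was present in 84.35% of the 10531 analysed genes with such an mRNA, at a median of 0.94 per kb. KDM6B held 71 windows in 6713 bases, or 10.6 per kb, which was at the 99.7th percentile of those genes, and 63 of the 71 began in its coding sequence. C made up 34.87% of the KDM6B mRNA, against a median of 23.83%. KDM6A, its relative, held 3 windows in 5924 bases (0.51 per kb).

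KDM2A was less unusual, with 17 windows or 2.44 per kb (79.5th percentile), 10 of them in the coding sequence and 7 in the 3′ UTR. KDM2B, which was not enriched, held 28 windows or 5.36 per kb (96.0th percentile), of which 15 began in the 5′ UTR. KDM4B had a density close to that of KDM2A (2.46 per kb) and an hnRNPK enrichment of 0.22. KDM5A carried 11 of its 13 windows in the 5′ UTR stretch shown above. The remaining members, KDM1A, KDM3B, KDM4A and KDM5B, held between 1.16 (KDM5B) and 1.961 (KDM1A) per kb. Among the 743 hnRNPK-enriched genes with such an mRNA, the median was 2.89 per kb, a value that KDM6B and KDM2B passed and KDM2A did not. Over all 10531 genes, Spearman's rho across genes was 0.25 between density and hnRNPK enrichment, and 0.30 between mRNA length and hnRNPK enrichment. For FLAG-CBFB enrichment the corresponding values were 0.17 and -0.32, so the relation with length had the opposite sign. Genes are not independent replicates, both measures share the same libraries, and the longest annotated mRNA need not be the form these cells make. The mean transcript length weighted by abundance was below the mRNA scored for every member. It was 3785 to 4001 bases for KDM2A against 6967, and 2893 to 3862 for KDM6A against 5924. For KDM5A it was 5754 to 7298 against 10763, and for KDM6B 4398 to 5833 against 6713. The windows counted, and the KDM2A stretch shown above, may therefore be absent from part of the transcripts. A window is a match of letters and was not tested as a binding site.

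**Figure D4:**
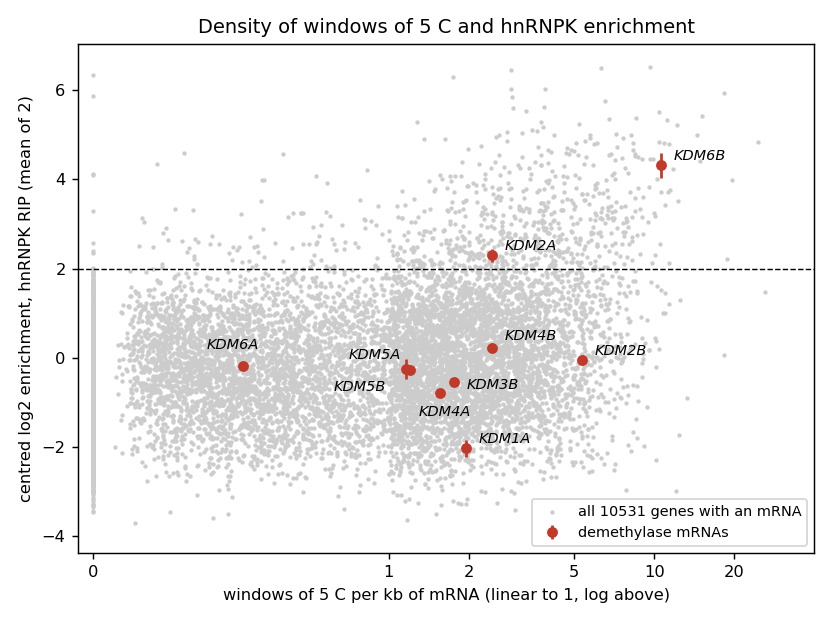
Windows of 5 consecutive C per kb of the longest protein-coding mRNA (linear up to 1, log above) against hnRNPK enrichment (mean of 2 repeats, bars SD), for 10531 genes (grey) and the 10 demethylases (red). KDM6B is at the far right and top at 10.6 per kb, while KDM2B, second in density at 5.36 per kb, lies near 0 in enrichment.

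The transcript forms recovered were also compared, by the mean transcript length of each gene weighted by abundance. Its ratio of RIP to input had a median over the members of 0.99 for FLAG-CBFB and of 1.03 and 0.99 for the hnRNPK repeats, with 4, 7 and 4 of 10 members longer in the RIP. KDM6B was estimated at 5833 bases in the FLAG-CBFB RIP against 4774 in its input, but at 5034 and 4398 bases in the hnRNPK RIPs against 5257 in theirs. KDM6A had the largest gap between the 2 inputs, at 3862 and 2893 bases, a ratio of 1.33 that was larger than its hnRNPK ratios of 1.15 and 1.22. KDM2A stayed between 3785 and 4001 bases in all 5 libraries. KDM1A was at ratios of 1.09 and 0.80, on opposite sides of its input in the 2 hnRNPK repeats. No member passed a ratio of 1.5 in any RIP.

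The enzymes around the members were described with lists of other demethylases, of the methyltransferases that add the same marks, and of partner subunits. Of 14 other demethylases 12 were analysed: none was enriched above 4-fold with FLAG-CBFB (4.37% of all genes were) and 2 were with hnRNPK (8.20% of all genes), KDM1B and PHF8. PHF8, which removes H3K9 and H4K20 methylation, was the highest of that list in both, at 0.76 ± 0.07 (95% counting half-width) and 2.69 ± 0.08 (SD, n = 2). It stood at 8.69 FPKM in the FLAG-CBFB cell input, 5.48 after FLAG RIP, 6.07 in the parental input, and 6.80 and 5.86 after hnRNPK RIP. This was the pattern of KDM2A, at or near the input level with hnRNPK and lower with FLAG-CBFB. KDM1B, the relative of KDM1A, was at 2.40 ± 0.51 with hnRNPK (SD, n = 2; 2.76 and 2.04), where KDM1A was depleted, and at -0.38 with FLAG-CBFB. The lowest were HR with FLAG-CBFB (-1.12) and RIOX2 with hnRNPK (-1.27 ± 0.24). RIOX1 shows the limit of the scale: it had 0 counts in both hnRNPK RIPs and 320 in the input, and yet an enrichment of 1.06. KDM1B and RIOX1 are named here after their values were seen.

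Of the 20 methyltransferases, 3 were enriched with FLAG-CBFB and 4 with hnRNPK, beside 4.37% and 8.20% of all genes. KMT2D, which shares a complex with KDM6A, was at 2.61 ± 0.04 with FLAG-CBFB (95% counting half-width) and, highest of the list, at 3.78 ± 0.11 with hnRNPK (SD, n = 2). SETD1B, an H3K4 methyltransferase, was at 2.63 ± 0.06 and 3.60 ± 0.19. KMT2D was thus enriched in all 3 RIPs, while KDM6A was near the average gene with hnRNPK (-0.18, 48.2th percentile) and not called by edgeR (log2 fold change -0.27, edgeR adjusted p = 0.61). The lowest were NSD1, an H3K36 methyltransferase, with FLAG-CBFB (-1.10) and its relative NSD2 with hnRNPK (-1.09 ± 0.35). By edgeR NSD2 was not called (log2 fold change -0.64, edgeR adjusted p = 0.16), while 1 other methyltransferase was called lower. Which gene is lowest with hnRNPK thus depends on the measure.

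Of 25 partner subunits 24 were analysed, with 3 enriched with FLAG-CBFB and 5 with hnRNPK (4.37% and 8.20% of all genes), KMT2D again among them since it stands in both lists. BCORL1, a corepressor of the KDM2B Polycomb complex, was the highest with hnRNPK at 4.04 ± 0.39 (SD, n = 2) and was at 2.37 ± 0.11 with FLAG-CBFB (95% counting half-width). USP7 was the lowest with FLAG-CBFB (-1.20) and SKP1 with hnRNPK (-2.05 ± 0.10), and both encode subunits of that same complex. The place of SKP1 depends on the scale. Its plain hnRNPK FPKM ratios (0.039 and 0.034) were above those of USP7 (0.031 and 0.020). By edgeR SKP1 was not called (log2 fold change -0.31, edgeR adjusted p = 0.49), while USP7 was called lower (-1.11, edgeR adjusted p = 0.0126). By edgeR, 4 of 12 other demethylases, 10 of 20 methyltransferases and 13 of 24 partner subunits were called higher with hnRNPK, and 1, 1 and 3 lower, beside 24.6% and 14.3% of all genes. The lists were chosen with earlier results of these data known, so these counts describe them and support nothing further. For reference, RUNX1, the mRNA the study set out from, was at 2.13 ± 0.04 with FLAG-CBFB and 3.09 ± 0.28 with hnRNPK. GAPDH was at -0.18 ± 0.01 and -2.69 ± 0.04. KDM6B stood above RUNX1 in all 3 RIPs. KDM1A stood above GAPDH in both hnRNPK RIPs on this scale. Its plain FPKM ratio was below that of GAPDH in repeat 1 (0.0216 against 0.0258) and above it in repeat 2 (0.0272 against 0.0235). By edgeR the log2 fold change was -1.51 for KDM1A and -1.39 for GAPDH, so their order is not resolved.

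**Figure D5:**
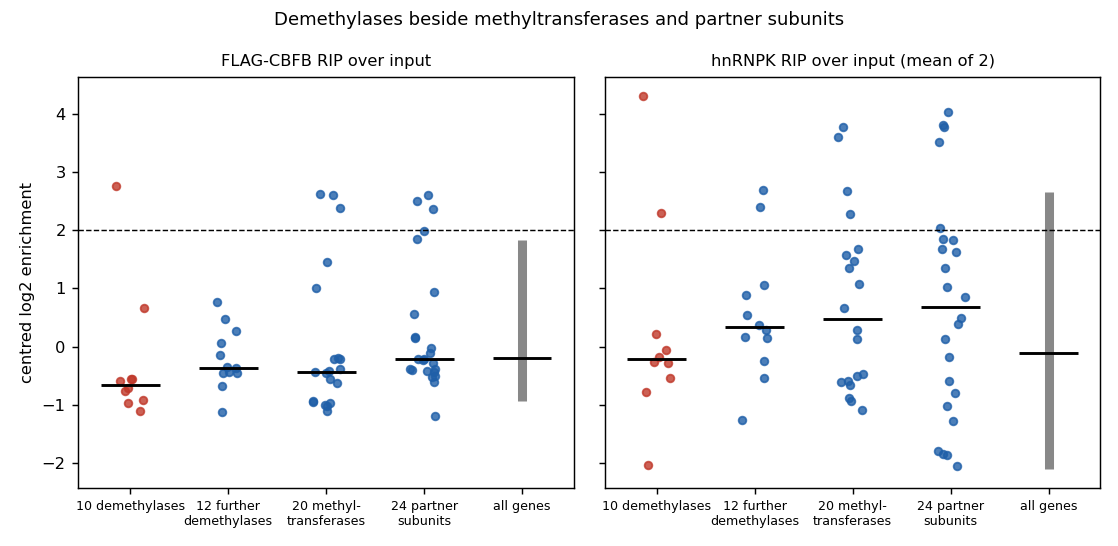
Centred log2 enrichment with FLAG-CBFB (left) and hnRNPK (right, mean of 2) for the 10 demethylases (red) and 3 further lists (blue), 1 point per gene. Black lines are medians, the grey bar spans the 5th to the 95th percentile of all 11764 genes and the dashed line is 4-fold. KDM6B is the highest of all listed genes in both panels.

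Reads at a few members can come from more than 1 gene, and the strand setting of the counting is not stated. KDM4A shares 2077 bases of its exons (40.2%) with AL451062.3, a same-strand gene that was not analysed here, and 464 with KDM4A-AS1 on the opposite strand, which was at 0.68 FPKM or less in every library. KDM2B shares 439 bases with RNF34 on the opposite strand, which stood at 14.65 and 16.90 FPKM in the inputs. KDM5A shares 182 bases with CCDC77. No exon of KDM6B, KDM2A or KDM1A overlapped another gene in GENCODE 29. Over the 5 libraries, the genes whose levels lay nearest to the median profile of the members were MUL1, ZNF354A and TMUB2, at distances of 0.17, 0.18 and 0.19 on the log2(FPKM + 1) scale among 9525 candidates.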

How the data were processed

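Per the labels, libraries were prepared with the TruSeq mRNA kit from Trizol-extracted RNA. The submitters' processing notes name Trimmomatic, STAR, RSEM and hg19. The annotation release and the strand setting are not given in the sources used here. The authors deposited RSEM expected counts, which are estimated counts that need not be whole, FPKM values, which the authors scaled to transcript length and library total, and effective and mean transcript lengths. Samples were grouped by their titles. Gene names came from GENCODE 29 (GRCh38) and a table of gene names for 51497 of 56632 identifiers, and coordinates and mRNAs are those of GENCODE 29, since the tables hold none.

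Analysed genes had a mean FPKM over the 5 libraries of 1 or more, with a pseudocount of 1 on the log2(FPKM + pseudocount) scale, which understates the change of weak genes. Rounded expected counts were tested with edgeR 4.0.16 (R 4.3.3), threshold 0.05, and with DESeq2 1.42.0 as an alternative. Other tools were Python 3.11.15, pandas 2.3.3 and matplotlib 3.10.9. Counting half-widths are 95% Poisson intervals and cover counting error only. FLAG-CBFB has 1 library per arm, so nothing was tested on it. The enrichment and the edgeR test were tried on simulated data, and the count of C windows on a short made-up sequence. The other computations were not tried in this way. The members and lists were chosen with earlier results of these data known. Named genes are the members, the extremes of each list, RUNX1, GAPDH and the 3 nearest profiles, with KDM1B and RIOX1 added after their values were seen. Alternatives were other pseudocounts, centrings, filters, scalings, thresholds, inputs and single repeats.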

Additional observations from a re-analysis of the deposited data

Results flagged for a closer look

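For 6 of the named genes, the sign of enrichment was opposite between FLAG-CBFB and both hnRNPK repeats. The difference was not tested, since FLAG-CBFB has 1 library, and it was read as the hnRNPK mean minus the FLAG-CBFB value. KDM4B differed by 0.94, with -0.72 in the FLAG-CBFB RIP against 0.25 and 0.20 in the hnRNPK repeats. Its hnRNPK value without any reads would be -0.15, and it was -0.50 with a pseudocount of 0.1 and -0.53 as log2 CPM with TMM factors. Against the opposite input KDM4B was negative with both proteins, at -0.32 with FLAG-CBFB and -0.18 with hnRNPK. KDM1B differed by 2.77 (-0.38 against 2.76 and 2.04). RIOX1 differed by 1.20 (-0.14 against 1.02 and 1.09), with 0 counts in both hnRNPK RIPs and a FLAG-CBFB value within its counting half-width of 0.33 of 0. HR differed by 1.29 (-1.12 against 0.16 and 0.17) and NSD1 by 1.23 (-1.10 against 0.15 and 0.11). The FLAG-CBFB cell input exceeded the parental one by 0.64 for KDM1B, 0.70 for HR and 0.54 for NSD1, on the log2(FPKM + 1) scale. These gaps are larger in size than the FLAG-CBFB value of KDM1B and the hnRNPK values of HR and NSD1. Whether these 3 signs hold against the opposite input was not tested. RIOX2 differed by -1.34 (0.07 against -1.10 and -1.44), and its FLAG-CBFB value lay within its counting half-width of 0.08 of 0.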

How the results depend on the processing

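Under every alternative of the enrichment KDM6B was the highest member and KDM2A the next with both proteins, and KDM1A was the lowest with hnRNPK. The counts of enriched members (1 with FLAG-CBFB, 2 with hnRNPK) fell to 0 and 0 without centring, to 0 and 0 after scaling FPKM to the same arithmetic mean, and to 0 and 1 with all genes in the centring. KDM2A turned to -0.34 with hnRNPK without centring and to -1.16 with that equal mean. The median member enrichment with FLAG-CBFB was -0.82 with a pseudocount of 0.1, -1.995 without centring, -0.47 with median centring, -2.82 with that equal mean, -1.68 without a filter and -0.47 against the opposite input. With hnRNPK it was -0.44, -2.86, -0.11, -3.41, -2.25 and -0.51 under those 6 settings, and 0.18 at a mean FPKM of at least 5 (7 members), -0.39 without mitochondrial genes and -0.34 as log2 CPM with TMM factors. Against the opposite input, FLAG-CBFB enrichment also moved by over 1.5 times for KDM1A (-0.90), KDM4B (-0.32), KDM5A (-0.59) and KDM5B (-0.12). Without each hnRNPK repeat in turn, the median ranged from -0.24 to -0.15 and the count stayed at 2.

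By edgeR with total counts only, 1 member was called higher and 8 lower, with KDM2A at -0.36, KDM3B at -3.79 and KDM5B at -3.60. Without a filter 2 were called lower (KDM4A added, edgeR adjusted p = 0.0031), with KDM3B at -0.21 and KDM5B at -0.035. Against the opposite input 2 were called lower (KDM5A added, edgeR adjusted p = 0.04), with KDM5B at -0.37, and at a log2 fold change beyond 2 the count was 0. DESeq2 called the same 2 higher and 1 lower. Over all genes, FPKM-based calls ranged from 94 to 1091 with FLAG-CBFB (514 as reported) and from 37 to 2456 with hnRNPK (965), and calls by counts from 320 to 3328 higher (2891) and from 68 to 10660 lower (1677). Apart from total counts and the centring itself, the cause was not tested. Leaving out a repeat leaves the count test no residual degrees of freedom, so it was not run. No paired analysis was possible because only the hnRNPK RIP has repeats and each input is 1 library. Each enrichment rests on 1 input, and KDM2B, KDM4B and KDM6A, with 107 to 184 counts in an hnRNPK RIP, have the widest counting error there.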
